A study of Mus musculus with 12 samples.

Results

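Regulatory T cells (Treg) in a resting state share transcription regulators with naive T cells. Followed here were 9 genes listed under that heading, together with the receptor chain Il7r. The heading is a name and was not tested, and Id2 and Myb had their lowest group mean in wild-type cells before activation. The 10 genes were Tcf7, Lef1, Bach2, Satb1, Id2, Id3, Foxo1, Foxp1, Myb and Il7r. Every non-control probe that the scanner files name for 1 of these genes was taken, which gave 18 probes. All 10 genes entered the tests, among 18545 genes in all. The rule used gene names alone, but the 10 genes were chosen with earlier results of these data known.

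RNA came from Treg sorted from the spleens of female C57BL/6 mice that were either wild type for CD83 (WT) or carried a conditional deletion of it, named CD83cKO in the labels (KO). Cells were either non-activated (0 h) or activated for 3 h with antibodies to CD3 and CD28, and each of the 4 groups was measured on 3 single-colour Agilent arrays. WT mice were 9 weeks old. KO mice were 10 weeks old, except those behind replicate 3 at 0 h and replicate 3 at 3 h, which were 21 weeks old. The labels name no Cre driver. The series lists 6 mice for 12 arrays without saying which mouse gave which array, so arrays may share mice and p-values measure the spread between arrays. One slide carried the 6 KO arrays, and WT at 0 h and WT at 3 h had a slide each. Slide and genotype, and slide and time in WT, therefore cannot be told apart, whereas the change over time in KO lies within 1 slide. Starting RNA for amplification was 20 ng for a sample called 1 at 0 h and 40 ng for the rest.

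In background terms, TCF-1 (encoded by Tcf7) and LEF-1 are related DNA-binding factors that act with beta-catenin or with Groucho-type corepressors. FOXO1 keeps T cells quiescent and drives genes of lymphoid homing, Il7r among them, until signalling through the antigen receptor moves it out of the nucleus. BACH2 represses genes of effector differentiation, and ID2 and ID3 bind E proteins and keep them from DNA. When Treg are activated toward the effector state, levels of several of these regulators are known to change.

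The sequences below show what part of a gene a value stands for. They were picked from general knowledge of the encoded proteins as likely coding sequence, which was not tested against an annotation. An open reading frame does not set them apart, since 16 of the 18 probes hold at least 1. Foxp1 is shown with 3 probes because its probes gave changes of different size. All are given as deposited, 5′ to 3′, with positions of the array design on mm9. The Foxp1 probe A_55_P2088825 holds a frame that is open up to a stop codon at its end, shown in capitals. The Foxp1 probe A_52_P276792 (chr6:98885382-98889719) and the Id3 probe (chr4:135700075-135700249) span 4338 and 175 bases of the genome with 60 bases of probe, so they cross an exon junction. Exon and untranslated-region annotation of that build was not used here.
Foxp1 A_55_P2105452, chr6:99112925-99112984, minus strand: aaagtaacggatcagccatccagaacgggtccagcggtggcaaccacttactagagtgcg
Foxp1 A_52_P276792, minus strand: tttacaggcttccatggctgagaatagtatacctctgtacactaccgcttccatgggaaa
Foxp1 A_55_P2088825, chr6:98880084-98880143, minus strand: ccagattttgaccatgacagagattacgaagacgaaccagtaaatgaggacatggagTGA
Id3 A_51_P380178, plus strand: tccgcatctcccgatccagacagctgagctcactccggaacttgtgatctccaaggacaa
Foxo1 A_51_P138044, chr3:52150183-52150242, plus strand: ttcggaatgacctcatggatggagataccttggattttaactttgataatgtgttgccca
Bach2 A_55_P1956370, chr4:32588782-32588841, plus strand: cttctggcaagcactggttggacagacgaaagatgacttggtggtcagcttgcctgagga

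Of the 18 probes, 17 were well above background on all 12 arrays. The other, Foxp1 A_55_P2105446, was well above background on 6. No member probe was saturated. Levels are normalized log2 signals, in which 0 is the 75th percentile of an array's signal over 19799 probes (those that every array detected). They are compared between arrays for 1 probe and never between probes. A gene with more than 1 probe is represented by its brightest.

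Replicate 3 of KO at 0 h and at 3 h, both from 21-week mice, stood apart. Set against WT at 0 h, the 10 regulators averaged -1.01 on the first and -1.33 on the second. On the 10-week KO arrays it was -0.05 to 0.02 at 0 h and 0.41 to 0.65 at 3 h. The mean of 11 T cell markers was likewise low on the 21-week arrays, at -1.87 and -2.69 while 10-week KO arrays gave -0.60 to -0.27. The mean of 6 plasma cell markers reached 6.72 and 7.17, where 10-week KO arrays gave -0.04 to 2.20. For 3 neutrophil markers the values were 7.07 and 5.69, with -1.04 to 1.12 in the younger KO mice. Macrophage markers (12 of 12 tested) were high on all KO arrays at 0 h, at 2.04 to 2.57, against -0.36 to 0.44 in WT. Of these 12 genes, 10 fell over time in WT and 9 in KO, and 11 were higher in KO at 0 h and 10 at 3 h (limma, 12 arrays). The part of these markers in the results was not tested, and in such samples fewer cells of a type and less RNA per cell cannot be told apart. Cd83 was lower on every KO array (0.23 to 0.75 at 0 h and 1.06 to 1.92 at 3 h) than on the WT arrays of the same time (2.17 to 2.39 and 3.65 to 4.21). The Foxp3 probe was not well above background on any of the 6 WT arrays and was so on all 6 KO arrays, where its mean was at least 5.82-fold higher at 0 h and at least 8.92-fold higher at 3 h. These bounds include the 21-week arrays, at -2.86 for 0 h and -3.16 for 3 h. The 10-week KO arrays were lower, at -6.27 and -6.04 for 0 h and -5.84 and -4.09 for 3 h, and no bound was taken from them alone. The Foxp3 probe thus gives no check of the sort in WT. The other Treg markers (Il2ra, Ctla4, Ikzf2, Tnfrsf18 and Izumo1r) were well above background on all 12 arrays, as were Cd4 and Cd3e. Of the 6 Treg markers, 5 had a KO minus WT difference below 0 at 0 h and at 3 h. The medians of the 6 were -1.35 and -1.06 on 12 arrays, and 0 were called lower. Without the 21-week arrays the medians were -0.59 and -0.11, and 2 were called lower at 0 h.

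**Figure D1:**
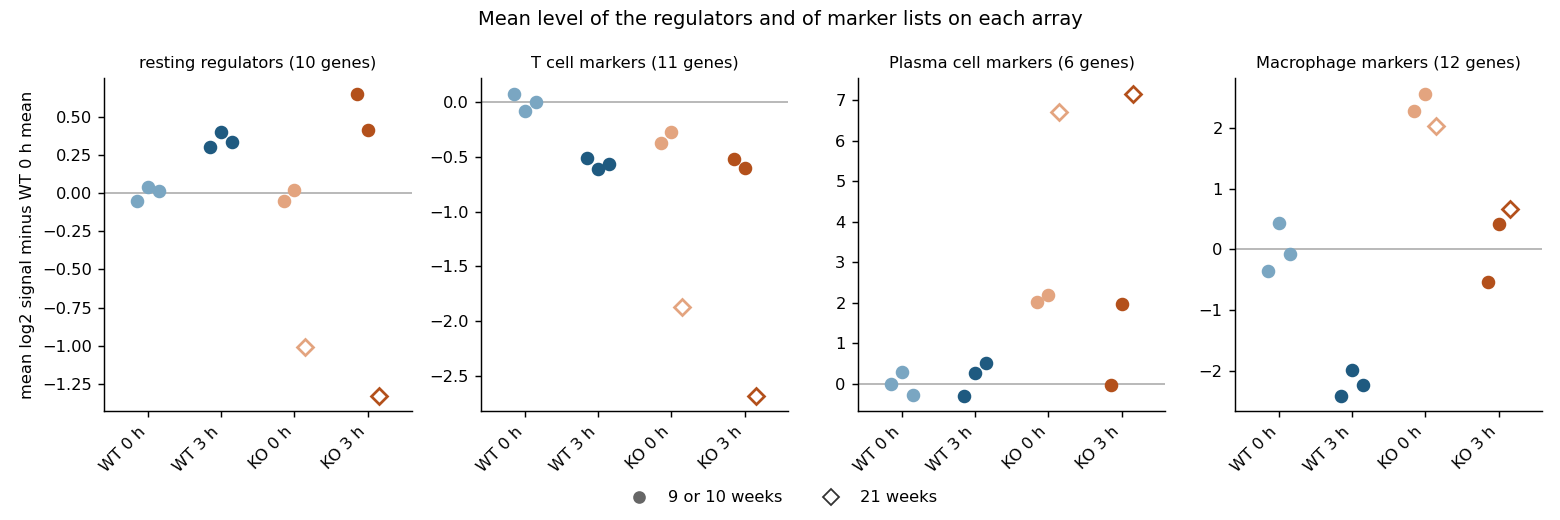
Mean log2 signal of the 10 regulators and of 3 marker lists on each array, as the difference from WT at 0 h, by group; open diamonds are the 21-week mice. The regulators and the T cell markers are lowest, and the plasma cell markers highest, on the 2 arrays from 21-week mice.

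Because these 2 arrays widen the spread that all groups share, each test is given with all 12 arrays and again on 10 arrays without them. Both are limma fits of the 4 group means with Benjamini-Hochberg adjustment over 18545 genes and a threshold of 0.05. A gene is said to rise or fall only where it passed in the fit named. The difference within WT has the same size in both fits, since its arrays are the same. Only its error differs.

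Over activation in WT, Id2 and Foxp1 rose and Id3 fell on 12 arrays. These 3 of the 10 genes passed where 29.9% of all genes did (13.3% upward and 16.6% downward). On 10 arrays 9 of the 10 passed. Satb1, Id2, Myb, Foxp1, Foxo1 and Bach2 rose and Id3, Lef1 and Tcf7 fell, in a fit that called 55.8% of all genes (24.2% upward and 31.6% downward). Values of the WT groups did not overlap for 9 of the 10 genes, all but Il7r, and for 68.5% of all genes. The median log2 difference was 0.66 over the 10 genes and -0.14 over all genes.

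**Figure D2:**
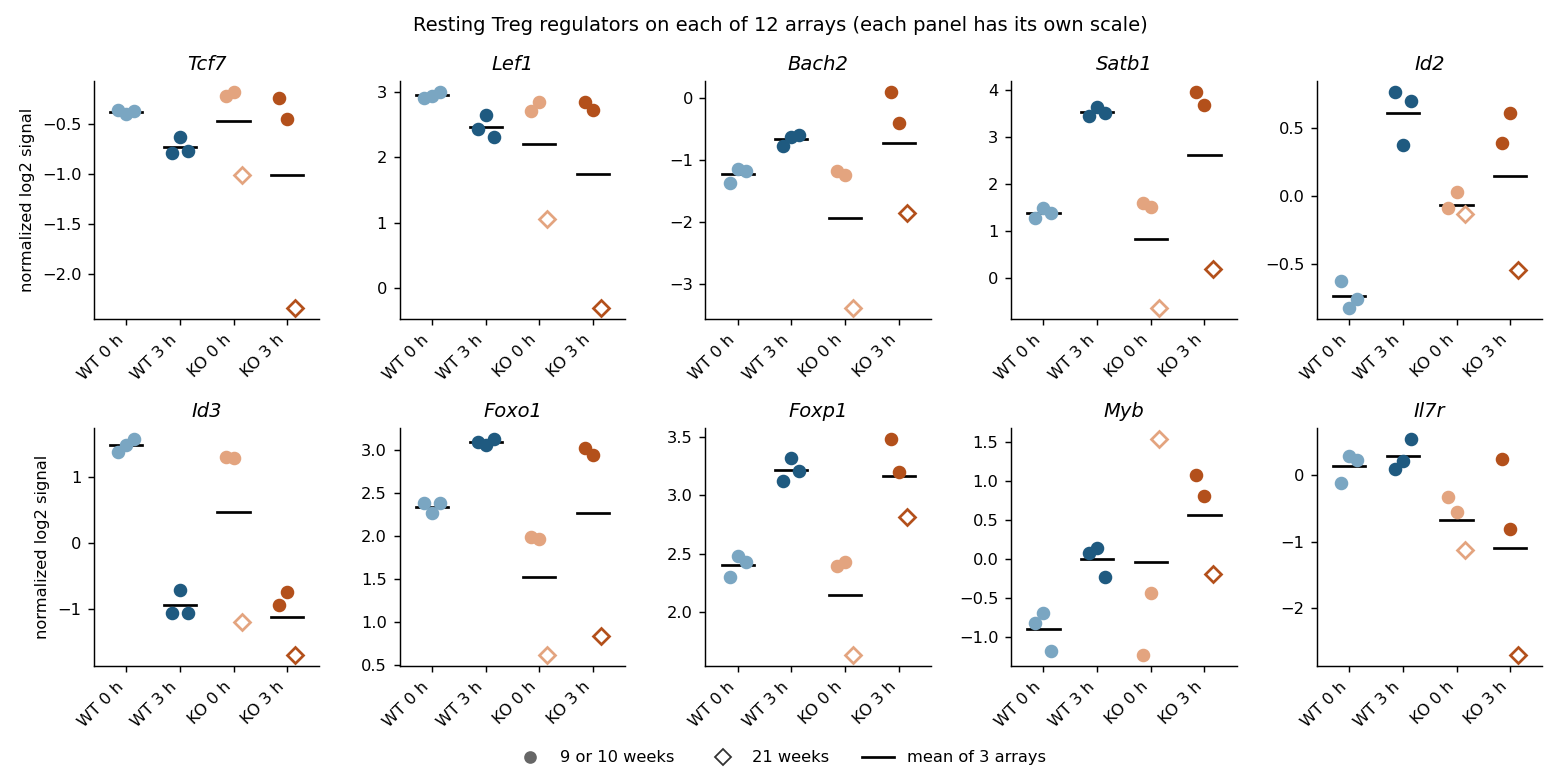
Normalized log2 signal of the brightest probe of each regulator on each array, by group, with its own scale per panel; points are arrays, open diamonds the 21-week mice and bars the mean of 3 arrays. Satb1 lies between 1.27 and 1.5 in WT at 0 h and between 3.45 and 3.64 at 3 h, and 8 of the 10 genes have their lowest value on a 21-week array.

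The inhibitors of E proteins, Id2 and Id3, moved oppositely. Id3 signal in WT was 1.38, 1.49 and 1.58 at 0 h and -1.06, -0.72 and -1.07 at 3 h. The groups lay far apart, and Id3 fell by 2.43 on the log2 scale (SE 0.575, adjusted p = 0.0110, limma on 12 arrays). On 10 arrays the adjusted p was 3.83e-06. Id2 signal in WT was -0.63, -0.83 and -0.76 at 0 h and 0.77, 0.38 and 0.70 at 3 h. Id2 rose 2.56-fold, by 1.36 ± 0.267 (SE, limma adjusted p = 0.00472 on 12 arrays and 6.69e-05 on 10). With no shift between arrays the 12-array adjusted p was 0.0511 for Id2 and 0.0583 for Id3, which ends both calls. The 2 are close relatives in function, yet every WT array at 3 h was above the 0 h arrays for Id2 and below them for Id3.

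In KO, Id3 was 1.30 and 1.29 on the 10-week arrays at 0 h and -0.94 and -0.75 at 3 h, and on the 21-week arrays -1.20 and -1.71. The difference was -1.60 ± 0.575 on 12 arrays (limma adjusted p = 0.0841), which did not pass. Without the 21-week arrays Id3 fell by 2.14 (SE 0.149, limma adjusted p = 4.05e-05). Id2 in KO was -0.09, 0.03 and -0.13 at 0 h, the last on the 21-week array, and 0.39, 0.61 and -0.55 at 3 h. The 21-week array at 3 h lay below all arrays at 0 h. The Id2 difference in KO was 0.21 ± 0.267 on 12 arrays (limma adjusted p = 0.634), and on 10 arrays Id2 rose by 0.53 ± 0.156 (adjusted p = 0.0249).

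Satb1, a chromatin organiser that Foxp3 represses in Treg, had the largest upward difference in WT among the 10 genes. Its signal was 1.27, 1.5 and 1.38 at 0 h and 3.45, 3.64 and 3.52 at 3 h, a 4.44-fold difference. On 12 arrays its log2 difference of 2.15 had an SE of 0.910 and did not pass (limma adjusted p = 0.102). On 10 arrays the SE was 0.108 and Satb1 rose (adjusted p = 3.89e-06). In KO, Satb1 was 1.59 and 1.52 on the 10-week arrays at 0 h and 3.97 and 3.70 at 3 h, and -0.65 and 0.18 on the 21-week arrays. The KO difference was 1.79 ± 0.910 on 12 arrays (adjusted p = 0.204) and 2.28 ± 0.132 on 10 arrays (adjusted p = 2.01e-05). Both 10-week KO arrays at 3 h were above every WT array at that time, and both 21-week arrays were below every other array.

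The HMG-box factors Tcf7 and Lef1 were the other genes that fell in WT on 10 arrays. The T cell markers were lower there too, with a mean of -0.61 to -0.51 at 3 h and -0.08 to 0.08 at 0 h. Of those 11 markers, 7 fell and 1 rose on 10 arrays, and 1 fell on 12 arrays. Their median difference was -0.57, in a range from -1.49 for Lck to 0.63 for Cd28, with -0.94 for Cd3e. The part of these markers in the result was not tested. Lef1 was 2.91, 2.93 and 3.00 at 0 h and 2.43, 2.64 and 2.31 at 3 h in WT. Lef1 fell by 0.49 on 10 arrays (SE 0.106, limma adjusted p = 0.00531), and on 12 arrays its adjusted p was 0.674. Tcf7 was -0.36, -0.40 and -0.37 at 0 h and -0.79, -0.63 and -0.77 at 3 h. Tcf7 fell by 0.35 on 10 arrays (SE 0.0903, limma adjusted p = 0.0111), and on 12 arrays its adjusted p was 0.617. The WT groups of both genes did not overlap. Neither gene passed in KO in either fit. On 12 arrays the KO difference was -0.45 ± 0.759 for Lef1 and -0.54 ± 0.470 for Tcf7, next to -0.49 and -0.35 in WT. On the 10-week KO arrays Lef1 was 2.70 and 2.85 at 0 h and 2.84 and 2.72 at 3 h, so the times overlapped. Its difference there was 0.01, with a 95% interval of -0.30 to 0.31. That of Tcf7 was -0.15, with an interval of -0.40 to 0.11. The 21-week arrays had the lowest Lef1 values of all, 1.05 and -0.31.

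Both forkhead factors rose in both genotypes on 10 arrays. Foxo1 in WT was 2.38, 2.27 and 2.38 at 0 h and 3.09, 3.06 and 3.13 at 3 h, a difference of 0.75. It passed on 10 arrays (SE 0.0768, limma adjusted p = 0.000100) and not on 12 (SE 0.552, adjusted p = 0.337). In KO, Foxo1 was 1.99 and 1.97 on 10-week arrays at 0 h and 3.03 and 2.94 at 3 h, and 0.61 and 0.83 on the 21-week arrays. It rose by 1.01 ± 0.0941 on 10 arrays (limma adjusted p = 0.000133), and its 12-array difference was 0.75 ± 0.552 (adjusted p = 0.385).

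Foxp1, which encodes a forkhead factor that helps keep naive T cells quiescent, was the only one of the 10 genes called in both genotypes on 12 arrays. In WT its signal was 2.30, 2.48 and 2.43 at 0 h and 3.12, 3.32 and 3.21 at 3 h. It rose 1.76-fold, by 0.81 ± 0.238 (limma adjusted p = 0.0277). In KO it was 2.39, 2.43 and 1.63 at 0 h and 3.48, 3.20 and 2.81 at 3 h, the last value of each on the 21-week array. Even the 21-week array at 3 h lay above all KO arrays at 0 h, and Foxp1 rose by 1.01 ± 0.238 (adjusted p = 0.0180), or by 0.93 ± 0.128 on 10 arrays (adjusted p = 0.000782). The 12-array calls of Foxp1 were close to the threshold. Leaving out any 1 WT array raised its WT adjusted p to between 0.0617 and 0.0886, and leaving out KO replicate 1 or 2 at 3 h raised its KO adjusted p to 0.0658 or 0.0571. Quantile normalization gave 0.0828 in WT and 0.0688 in KO.

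**Figure D3:**
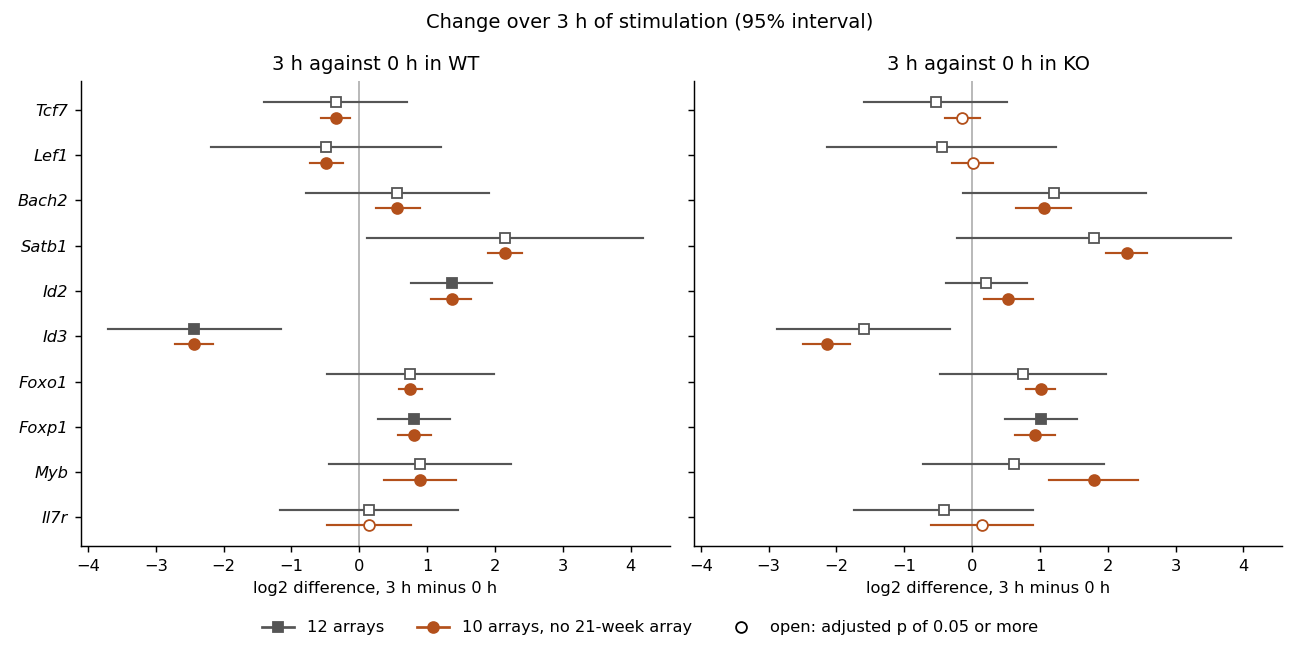
Log2 difference between 3 h and 0 h for each regulator in WT (left) and KO (right), with 95% intervals, on 12 arrays (grey squares) and on 10 arrays without the 21-week mice (orange circles); filled symbols have an adjusted p under 0.05. Filled circles number 9 of 10 in WT and 7 of 10 in KO, and Id2 and Foxp1 lie above 0 and Id3 below 0 with filled squares in WT.

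BACH2 and MYB restrain or shape effector differentiation, and both genes rose on 10 arrays. Bach2 was -1.37, -1.14 and -1.17 at 0 h and -0.78, -0.62 and -0.59 at 3 h in WT, a difference of 0.56 (SE 0.142, limma adjusted p = 0.0102 on 10 arrays and 0.521 on 12). In KO it was -1.17 and -1.24 on the 10-week arrays at 0 h and 0.10 and -0.40 at 3 h, a rise of 1.06 ± 0.174 (adjusted p = 0.00187). With the 21-week arrays, at -3.39 and -1.86, the KO difference was 1.21 ± 0.605 (adjusted p = 0.197). Myb in WT was -0.82, -0.69 and -1.19 at 0 h and 0.08, 0.14 and -0.23 at 3 h, a difference of 0.89 (SE 0.231, adjusted p = 0.0114 on 10 arrays and 0.294 on 12). On the 10-week KO arrays Myb was -1.24 and -0.44 at 0 h and 1.08 and 0.81 at 3 h, a rise of 1.79 ± 0.282 (limma adjusted p = 0.00154). With the 21-week arrays, at 1.54 and -0.20, the KO difference was 0.61 ± 0.601 (adjusted p = 0.527).

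Myb was the exception among the 10 genes on the 21-week array at 0 h. There it was 1.54, its highest value on any array and 2.38 above the 10-week KO mean. The other 9 genes were 0.10 to 2.49 below their 10-week KO mean on that array. At 3 h all 10 were below it, by 0.53 (Foxp1) to 3.65 (Satb1).

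Il7r encodes the alpha chain of the IL-7 receptor, through which naive T cells receive survival signals. It was the only gene of the 10 not called in any comparison in either fit. Its WT values were -0.12, 0.29 and 0.23 at 0 h and 0.09, 0.21 and 0.54 at 3 h, and the groups overlapped. The WT difference on 10 arrays was 0.14, with a 95% interval of -0.47 to 0.76. In KO, Il7r was -0.33, -0.55 and -1.13 at 0 h and 0.24, -0.81 and -2.71 at 3 h, with the 21-week arrays lowest.

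In KO on 12 arrays, then, 1 of the 10 genes was called over time, Foxp1, where 17.2% of all genes were (7.38% upward and 9.79% downward). KO values at 3 h and 0 h did not overlap for 1 of the 10 genes, again Foxp1, and for 24.4% of all genes. On 10 arrays 7 of the 10 were called, 6 upward and 1 downward, where 46.2% of all genes were (20.3% upward and 25.9% downward). With 2 arrays per KO group, that fit rests on fewer values.

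Genes with several probes gave the same direction in WT from every probe. The 2 Foxo1 probes differed little, at 0.75 and 0.77, as did those of Lef1, at -0.49 and -0.51. The second Tcf7 probe, A_55_P2109633, gave -0.22 ± 0.149 in WT and was not called on 10 arrays (limma adjusted p = 0.254). The Bach2 probe printed above showed 1.47 in WT, against 0.56 for the brighter probe of the gene, and passed on 10 arrays (limma adjusted p = 0.00116 over all probes). For Foxp1 the WT difference was 0.40 at A_55_P2105452, 0.91 at A_52_P276792 and 0.81 at A_55_P2088825, in the order of the transcript. The first did not pass on 10 arrays (adjusted p = 0.0715) and the other 2 did (0.000394 and 0.000410). In KO the same 3 probes gave 0.39, 0.92 and 0.93. A_55_P2105436, which lies between the first and the second, gave 1.03 in WT. The dim probe A_55_P2105446 was detected above background on 0 of 3 KO arrays at 0 h and 2 of 3 at 3 h, where its mean was at least 2.76-fold higher. Whether probes of 1 gene differ from each other was not tested.

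**Figure D4:**
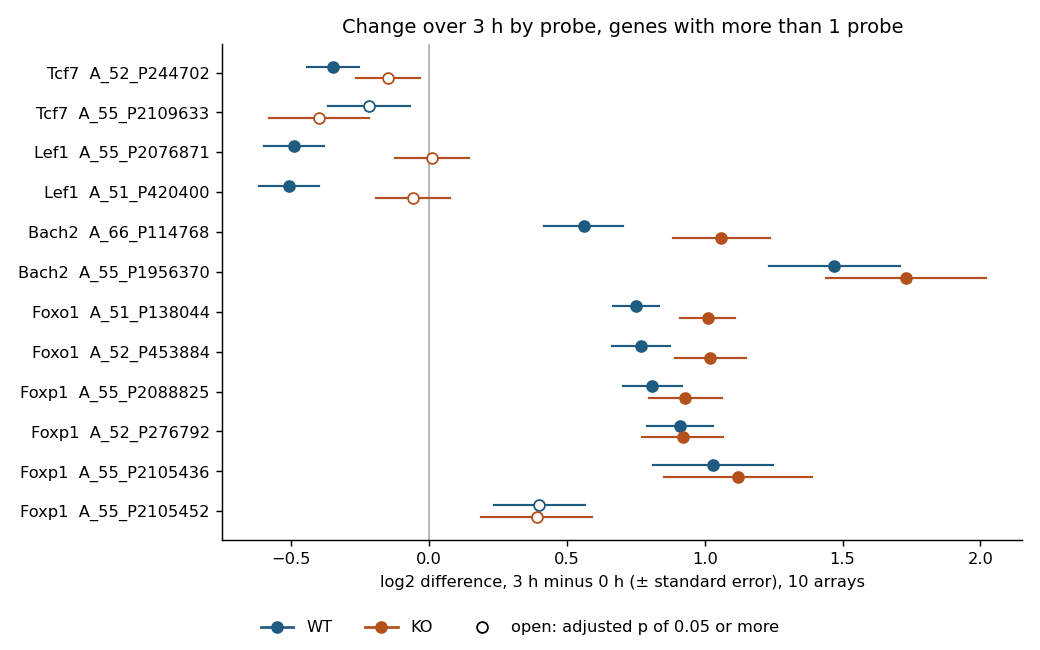
Log2 difference between 3 h and 0 h for each probe of the genes with more than 1 probe (those that all 12 arrays detected), in WT (blue) and KO (orange), ± the limma standard error on 10 arrays; filled points have an adjusted p under 0.05. The Foxp1 probe A_55_P2105452 has the smallest difference of the 4 Foxp1 probes in both genotypes, with open points, and the Bach2 probe A_55_P1956370 has a larger one than the other Bach2 probe.

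Between genotypes, none of the 10 genes was called at 0 h on 12 arrays with limma, where 2.08% of all genes were and where 1 of the 10, Id2, had an unadjusted p under 0.05, as had 15.4% of all genes. Values of KO and WT at 0 h did not overlap for 5 of the 10 genes, Id2 above and Lef1, Id3, Foxo1 and Il7r below, and for 31.6% of all genes. Without the 21-week array, 2 of the 10 were called (Id2 upward and Foxo1 downward), where 6.63% of all genes were (4.71% upward and 1.91% downward).

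Among KO arrays at 0 h, Id2 had values of -0.09, 0.03 and -0.13, while those of WT were -0.63, -0.83 and -0.76. All KO arrays, the 21-week one included, were above all WT arrays, and they lay between the WT levels at 0 h and at 3 h. The log2 difference was 0.67 ± 0.267 on 12 arrays (limma adjusted p = 0.263) and 0.71 ± 0.143 on 10 (adjusted p = 0.0304). Marker means of other cell types were also above all WT arrays on all KO arrays at 0 h. They were 2.04 to 2.57 for macrophages, 0.99 to 2.37 for dendritic cells (-0.29 to 0.23 in WT) and 0.26 to 2.18 for NK cells (-0.19 to 0.21 in WT). Those of plasma cells were 2.02 to 6.72 (-0.28 to 0.29 in WT) and erythroid ones 2.48 to 3.34 (-1.24 to 1.08 in WT). Of the 7 dendritic cell markers, 5 were above 0 in KO against WT at 0 h and 2 below, and 1 was called higher on 12 arrays. On 10 arrays 2 were called higher and 1 lower. All 7 NK cell markers were above 0, and 1 was called higher in each fit. On 10 arrays this was Tyrobp (1.92, limma adjusted p = 0.00741), and those not called included Klrd1 (1.70), Klrb1c (0.75) and Prf1 (0.07). Dendritic and NK cells are known to express Id2. The part of these cell types in the Id2 difference was not tested. At 3 h Id2 differed by -0.47 ± 0.267 on 12 arrays (limma adjusted p = 0.545) and by -0.12 on 10 (95% interval -0.45 to 0.21).

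Foxo1 values at 0 h were 1.99, 1.97 and 0.61 for KO, and WT had 2.38, 2.27 and 2.38, with the 21-week array lowest. The difference was -0.82 ± 0.552 on 12 arrays (limma adjusted p = 0.521) and -0.36 ± 0.0859 on 10 (adjusted p = 0.0478). The second probe of Foxo1 gave -0.82 on 12 arrays and -0.34 on 10, and it was not called in either (limma adjusted p = 0.577 and 0.126). With the adjustment over all probes, the first probe was not called on 10 arrays either (adjusted p = 0.0628). Il7r at 0 h was lower on every KO array than on any WT array, with a difference of -0.81 ± 0.590 on 12 arrays (limma adjusted p = 0.560) and -0.58 on 10 arrays (adjusted p = 0.247), and did not pass in either.

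At 3 h, limma called none of the 10 genes between genotypes on 12 arrays, where 1.45% of all genes were called and where 1 of the 10, Il7r, had an unadjusted p under 0.05, as had 10.6% of all genes. The groups did not overlap for 1 of the 10, Foxo1, and for 19.2% of all genes. On 10 arrays limma also called none, where 1.98% of all genes were called and where 5 of the 10 had an unadjusted p under 0.05, as had 12.8% of all genes. The sign of 6 genes depended on the 21-week array: Tcf7, Lef1, Bach2, Satb1, Id3 and Foxp1 were below 0 on 12 arrays (-0.92 to -0.05) and above 0 without it (0.10 to 0.51). For Satb1 the values were -0.92 ± 0.910 and 0.30 ± 0.121, and for Tcf7 -0.28 ± 0.470 and 0.38 ± 0.101.

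**Figure D5:**
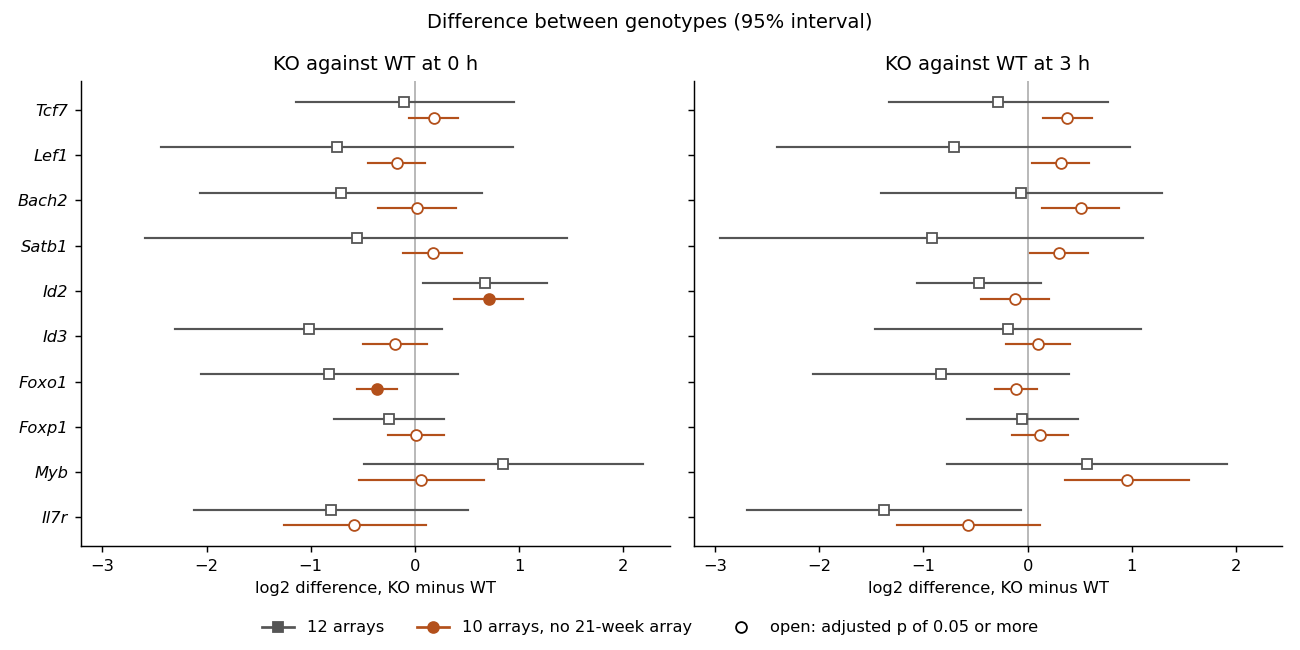
Log2 difference between KO and WT for each regulator at 0 h (left) and 3 h (right), with 95% intervals, on 12 arrays (grey squares) and on 10 arrays without the 21-week mice (orange circles); filled symbols have an adjusted p under 0.05. The filled symbols are Id2, at 0.71, and Foxo1, at -0.36, both at 0 h on 10 arrays.

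Whether activation acted differently in KO was tested as the difference of the 2 activation effects. With limma none of the 10 genes was called, nor any of the 18545 genes (0.00%), on 12 or on 10 arrays (0.00%). Unadjusted p-values under 0.05 were found for 1 of the 10 genes on 12 arrays, which was Id2, and for 3 of the 10 on 10 arrays. They were found for 688 and 1983 of the 18545 genes. For Id2 the KO effect minus the WT effect was -1.14 ± 0.377 on 12 arrays and -0.83 ± 0.202 on 10 arrays, with limma adjusted p-values of 1.00 and 0.391. Between the WT and KO effects of the other 9 genes, the difference on 10 arrays ran from 0.01 (Il7r) to 0.89 (Myb).

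Other genes around these regulators were taken from lists of partners and relatives. Their counts on 12 arrays stand against 29.9% of all genes called over time in WT and 17.2% in KO. In WT they ran from 0 of 4 to 4 of 7 genes called. Counts on 10 arrays stand against 55.8% of all genes in WT and 46.2% in KO. Of 9 tested partners and relatives of TCF-1 and LEF-1, 3 rose in WT on 12 arrays and 0 fell. They were Tle4 (2.18 ± 0.446, limma adjusted p = 0.00563) and Tle1 (1.67 ± 0.255, 0.00140), which are Groucho-type corepressors, and Ctnnb1 (0.93 ± 0.183, 0.00482), which encodes beta-catenin. Tle4 (1.61) and Ctnnb1 (0.64) also rose in KO. On 10 arrays, 3 rose and 2 fell in each genotype. Tcf7l2, a TCF relative, was the 1 gene of the list called between genotypes, higher in KO at 0 h by 1.12 ± 0.205 (adjusted p = 0.0248).

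Of 7 relatives, partners and targets of BACH2, 4 rose and 0 fell in each genotype on 12 arrays. The small Maf proteins, with which BACH2 pairs on DNA, were among them. Maff rose by 5.82 ± 0.438 in WT (limma adjusted p = 7.03e-05) and by 5.79 in KO. Mafg rose by 1.36 in WT and 1.42 in KO, and Mafk by 1.36 in WT and 1.06 in KO. Bach1, a relative, rose by 1.26 in KO. Hmox1, a target repressed by BACH1, was higher in KO at 3 h by 2.32 ± 0.470 (adjusted p = 0.0431), and it did not pass on 10 arrays (2.15, adjusted p = 0.0964). At 0 h it did not pass on 12 arrays (1.87, limma adjusted p = 0.0816) and passed on 10 (2.15, 0.0487). Splenic macrophages are known to express Hmox1, and macrophage markers such as C1qc (2.65) and Mrc1 (2.88) were also higher in KO at 3 h. Their part in the Hmox1 difference was not tested. Of 4 tested E proteins and other Id proteins, 0 were called over time in either genotype, in either fit.

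Of 12 FOXO-linked genes of homing and quiescence, 2 rose and 1 fell in each genotype on 12 arrays. In WT these were Irs2, an adaptor of insulin signalling (4.0 ± 0.567, limma adjusted p = 0.000975), Foxo3, a FOXO1 paralogue (1.90 ± 0.362, 0.00406), and Bcl2, which protects from apoptosis and fell by 1.76. In KO, Irs2 rose by 2.82 and Foxo3 by 1.19, and Bcl2 fell by 1.19. On 10 arrays 4 rose and 4 fell in WT, and 7 rose and 3 fell in KO. Of 7 tested forkhead relatives, 2 rose and 1 fell in WT: Foxo6 was at least 2.07-fold higher at 3 h, Foxm1, a cell cycle factor, rose by 0.85, and Foxn3 fell by 0.80. Foxo6 also rose in KO, by 2.36. Foxm1 was higher in KO than in WT at 0 h, by 1.46 ± 0.258 (adjusted p = 0.0213). Foxp3, also a forkhead gene, was the 1 gene of this list called between genotypes at 3 h, with the detection given above.

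Of 10 tested genes of IL-7 receptor signalling, 1 rose and 2 fell in WT and 0 were called in KO on 12 arrays. Stat5a, a transcription factor that the receptor activates, rose by 2.96 ± 0.739 (limma adjusted p = 0.0140), and the kinase gene Jak3 and the survival gene Mcl1 fell by 1.82 and 0.65. On 10 arrays 3 rose and 3 fell in each genotype, with Stat5a at 2.99 and Jak3 at -1.84 in KO. At 0 h none of the 10 was called between genotypes in either fit, with 10 of 10 below 0 on 12 arrays and 8 of 10 on 10 arrays. Of all genes, 52.5% and 48.9% were below 0 in these fits, and all 11 T cell markers were below 0 in both. Of 6 tested relatives and partners of MYB and SATB1, 1 rose in each genotype on 12 arrays: Runx3 in WT (0.89 ± 0.237, adjusted p = 0.0184) and the coactivator gene Crebbp in KO (0.64 ± 0.192, adjusted p = 0.0459).

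Of 11 regulators and markers of the effector state, 1 was lower in KO at 0 h and at 3 h on 12 arrays. This was Klrg1, a receptor of differentiated Treg, with -3.71 ± 0.743 and -3.75 ± 0.743 (limma adjusted p = 0.0333 and 0.0386). On 10 arrays 6 were lower at 0 h and 4 at 3 h, and 0 were higher. The medians on 10 arrays were -0.97 and -0.39, against 0.01 and 0.21 for the 10 member genes and 0.01 and 0.05 for all genes. On 12 arrays the medians of the 11 were -1.18 and -1.46. Those of the 10 member genes were -0.64 (8 of 10 below 0) and -0.38 (9 of 10 below 0), and those of all genes -0.03 and 0.04. For the 11 T cell markers the medians at 0 h and 3 h were -0.84 and -0.81 on 12 arrays and -0.35 and -0.03 on 10. Those of the 6 Treg markers were -1.35 and -1.06 on 12 arrays and -0.59 and -0.11 on 10. Whether the lists differ was not tested, nor was the part of these markers in the result. Over time in WT 3 of the 11 rose and 1 fell on 12 arrays. Tnfrsf9, a costimulatory receptor (3.48 ± 0.899, adjusted p = 0.0164), and Il1rl1, the IL-33 receptor (2.21 ± 0.620, 0.0233), rose and Batf fell by 1.06. Tnfrsf9 also rose in KO, by 3.31.

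The genes whose signal was most like that of each regulator over the 12 arrays were found among 14691 other genes well above background on all of them. These arrays share groups and, in 2 of them, the 21-week mice, so the correlations are descriptions. For Satb1 they were Rab3ip and Map3k14 (Pearson r = 0.997 and 0.996 on 12 arrays, and 0.995 and 0.994 on 10), beside a probe named by position only. For Id3 they were Kif21b, Ifi208 and Ncoa7 (0.985 to 0.987), and for Id2 Igsf8, Ppm1g and Slc25a38 (0.956 to 0.958). Foxo1 was most like Noxa1, Tnfrsf18 and AI837181 (0.994 to 0.996), Foxp1 most like Kdm4b and Smcr8 (0.982 each), and Bach2 most like Epc1, Tnfrsf26 and Tagap (0.979 to 0.991). Some values were lower without the 21-week arrays. For Tcf7 and Commd8 the correlation was 0.968 on 12 arrays and 0.869 on 10. For Lef1 and Txk it was 0.995 and 0.912, for Il7r and Il18r1 0.982 and 0.927, and for Il7r and Hcls1 0.946 and 0.734. Myb had the weakest likeness on 12 arrays, with Ahcy (0.916), Sox4 (0.915) and Pelp1 (0.880). On 10 arrays these were 0.922, 0.877 and 0.851, above the 0.869, 0.800 and 0.731 of the genes named as most like Tcf7 on 12.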

How the data were processed

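The members and all gene lists were chosen with earlier results of these data known. The authors deposited scanner files with spot intensity on a linear scale, and a table of log2 values. Per the file headers the scanner software was Feature Extraction 10.7.3.1, whereas the submitters' processing notes name version 11 and Partek. The scaling steps behind that table stay unknown here. Each of its columns had a median of 3.89, and its values rose with the scanner signal (lowest rank correlation 1.00).

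Of 62976 spots per array, 59305 were no controls and were used, without outlier spots and with spots of 1 probe averaged. The share of probes well above background was 42.9% to 54.6% per array. From each log2 processed signal the array's 75th percentile was subtracted, taken over 19799 probes that all 12 arrays detected. A probe was kept if every array of some group detected it, and the brightest kept probe stood for its gene. Tests used limma 3.58.1 in R 4.3.3, with 8 residual degrees of freedom on 12 arrays and 6 on 10, adjusted per comparison by Benjamini-Hochberg. Errors are standard errors of that fit and intervals are 95%. The number of arrays limits the precision. The fit was tested on simulated data.

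Named genes were all 10 members, and up to 3 called genes with the largest statistic per list and comparison. Marker lists are given by counts, medians and ranges, with a few markers named. Alternatives were quantile normalization, other percentile sets, no shift, normexp with an offset of 50, the deposited log2 table, other filters on dim probes, the mean of a gene's probes, a fit per comparison, age, array weights and each array left out. A bound on a fold uses, per array of the dimmer group, the higher of the probe's signal and the lowest signal among probes well above background.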

Additional observations from a re-analysis of the deposited data

How the results depend on the processing

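No paired analysis was possible because the replicate numbers were given in accession order and the labels do not say which mouse gave which array. A slide block could not be fitted because the slides are combinations of the groups, and the scan batches equal the slides.

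The counts of the 10 genes called moved most with the 21-week arrays, at 3 in WT and 1 in KO over time on 12 arrays. Without those arrays they were 9 in WT, 7 in KO and 2 at 0 h between genotypes. With a term for 21 weeks they were 6 in WT and 5 in KO, and with array weights 8 in WT, 6 in KO and 1 at 0 h. Fits per comparison called 9 in WT and 0 in KO. No shift between arrays called 0 in WT and 0 in KO and moved the median of all genes in KO over time from -0.04 to -0.34, and quantile normalization and the deposited table each called 0 in KO. With 1 array left out, the KO count ran from 0 to 5 and that at 0 h from 0 to 1. The highest KO count came without KO replicate 3 at 3 h, and it was 3 without KO replicate 3 at 0 h and 0 without KO replicate 1 or 2 at 3 h. The share of all genes called moved between fits too. It was 29.9% in WT, 17.2% in KO and 2.08% at 0 h on 12 arrays. Without the 21-week arrays it was 55.8%, 46.2% and 6.63%. Shares under the other alternatives are not given here, so those counts stand without a baseline.

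Of 1190 values of single genes under an alternative, 1049 kept their sign and their side of the threshold. The sign turned in 76, none of them called on 12 arrays or under that alternative. Without the 21-week arrays it turned over time in KO for Lef1 (0.01) and Il7r (0.15), at 0 h for Tcf7 (0.18), Bach2 (0.02), Satb1 (0.17) and Foxp1 (0.01), and at 3 h for Tcf7 (0.38), Lef1 (0.32), Bach2 (0.51), Satb1 (0.30), Id3 (0.10) and Foxp1 (0.12). The difference of effects turned for Tcf7 (0.21), Satb1 (0.13), Foxo1 (0.25), Myb (0.89) and Il7r (0.01). With the age term it turned at 0 h for Tcf7 (0.37), Lef1 (0.05) and Satb1 (0.41) and at 3 h for Tcf7 (0.19), Lef1 (0.09), Bach2 (0.59), Satb1 (0.06), Id3 (0.37) and Foxp1 (0.17). With array weights it turned for Il7r over time in KO (0.09), at 0 h for Tcf7 (0.16) and Satb1 (0.04), at 3 h for Tcf7 (0.27), Lef1 (0.17), Bach2 (0.39), Satb1 (0.12), Id3 (0.04) and Foxp1 (0.06), and in the difference of effects for Tcf7 (0.11), Satb1 (0.08), Foxo1 (0.22) and Myb (0.44). Without a shift it turned for Id2 over time in KO (-0.09) and in the difference of effects for Lef1 (-0.35) and Foxp1 (-0.18). That of Lef1 also turned with quantile normalization (-0.05), the deposited table (-0.05) and the mean of probes (-0.01).

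With 1 array left out, values over time in KO ran from -0.02 to 0.56 for Id2, -0.93 to 0.13 for Tcf7, -1.03 to 0.58 for Lef1 and -1.09 to 0.38 for Il7r. At 0 h they ran from -0.24 to 0.18 for Tcf7, -1.09 to 0.02 for Bach2, -0.95 to 0.17 for Satb1 and -0.39 to 0.01 for Foxp1. At 3 h they ran from -0.67 to 0.38 for Tcf7, -1.26 to 0.32 for Lef1, -0.47 to 0.51 for Bach2, -1.60 to 0.30 for Satb1, -0.38 to 0.10 for Id3 and -0.21 to 0.12 for Foxp1. The difference of effects ran from -1.09 to 0.86 for Satb1, -0.46 to 0.71 for Foxo1, -0.54 to 1.07 for Lef1, -0.08 to 1.22 for Bach2, -0.06 to 0.38 for Foxp1, -0.88 to 0.51 for Myb, -0.57 to 0.48 for Tcf7 and -1.24 to 0.24 for Il7r. The cause of these changes was not tested.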
